A study of Zea mays and Triticum urartu with 3 samples.

Results

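The 300 annotated loci with the most RNA fragments in a young leaf library of the wild wheat *Triticum urartu* are described here. They were chosen by their values in this library. Among the loci that carried a TuG1812 gene identifier, were marked OK by the software and had an end minus start of at least 300, they were the 300 with the highest number of implied fragments. They made up 0.802% of the 37398 annotated loci and 2.00% of the 15010 annotated loci above 0, out of 45337 listed loci in all, and 14960 loci could be ranked. The other 14710 annotated loci above 0 are called the remaining loci. Because the values that are described also chose the loci, and because there was 1 library with no replicate, nothing was tested: differences between the 300 loci and the remaining loci in fragments and FPKM were fixed by the choice.

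The series compared RNA bound to centromeric chromatin in maize with its input, and its study also looked for spliced RNA of retrotransposons in other crops. It holds 3 libraries with 1 in each group, and only the wheat library, TMU38, was used. TMU38 is the genotype given in the labels, the plants were grown in a greenhouse, young leaves were taken, and the title calls it an lncRNA library; no age, treatment, allele or antibody is given for it. Its extraction text is the one of the maize samples, which describes a precipitation with anti-CENH3 (CENH3 replaces histone H3 in centromeric nucleosomes). Whether these RNAs were precipitated therefore cannot be told from the labels. The study's paper calls the wheat reads an lncRNA sequencing dataset and describes the anti-CENH3 precipitation of RNA for maize.

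*T. urartu* is a diploid wheat and a close relative of the donor of the A genome of bread wheat. In green leaves of grasses, nuclear genes for light harvesting and carbon fixation usually give a large share of the messenger RNA, and several of these gene families lie as neighbouring copies on a chromosome. No table paired the TuG1812 identifiers with gene names, so none of the loci is assigned here to such a family, no gene list was used, and the leaf label could not be checked against marker genes. Loci are given by chromosome (Tu1 to Tu7), start and end in the genome build of the deposited file, with starts counted from 1, and its build is not named in the sources used here. Strand, exons and untranslated regions were not in the file, and no sequence is shown.

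Levels are given on 2 scales. FPKM, fragments scaled to transcript length in kilobases and to library size, is a level per length. Implied fragments are the number of fragments that stand behind an FPKM, derived from its deposited confidence limits, and they rise with both the level and the length of a transcript. All listed loci summed to 9863549 implied fragments, which covers listed loci only and is not the number of reads sequenced. The half-width of the limits of the 300 loci was 0.306 to 3.92% of the FPKM (median 2.60%). It was read here as counting error, and does not cover differences between plants. Under that reading implied fragments would be whole numbers, and they were at 61.1% of the 12454 remaining loci where rounding allowed the check.

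The 300 loci held 6503675 implied fragments. This was 65.9% of the library in this sense (exact 95% binomial interval 65.9 to 66.0%, counting error only). It was 71.7% of the 9070011 fragments at annotated loci. Summed FPKM gives no such share: the 300 loci held 0.00619% of the sum over all listed loci, since loci without an identifier held 99.99% of it and loci with an end minus start under 300 held 95.7%. Of the summed FPKM of the 14960 ranked loci, the 300 held 66.9%. The 14710 remaining loci held 26.0% of the library and loci without an identifier held 8.05%. The next 300 annotated loci in the same order, ranks 301 to 600, held 5.54%.

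The fragments were spread unevenly among the 300 loci. The first locus held 4.32% of the library, the first 5 held 17.2%, the first 20 held 33.8%, the first 50 held 46.4% and the first 100 held 55.9%. Few loci made up most of the sums: 19 loci held 50% of the fragments of the 300, and 65 loci held 50% of the library. The last 150 loci held 8.71% of the fragments of the 300. The number per locus ranged from 2607 to 426036, 163-fold, with a median of 5907 and quartiles of 3527 and 18295.

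**Figure D1:**
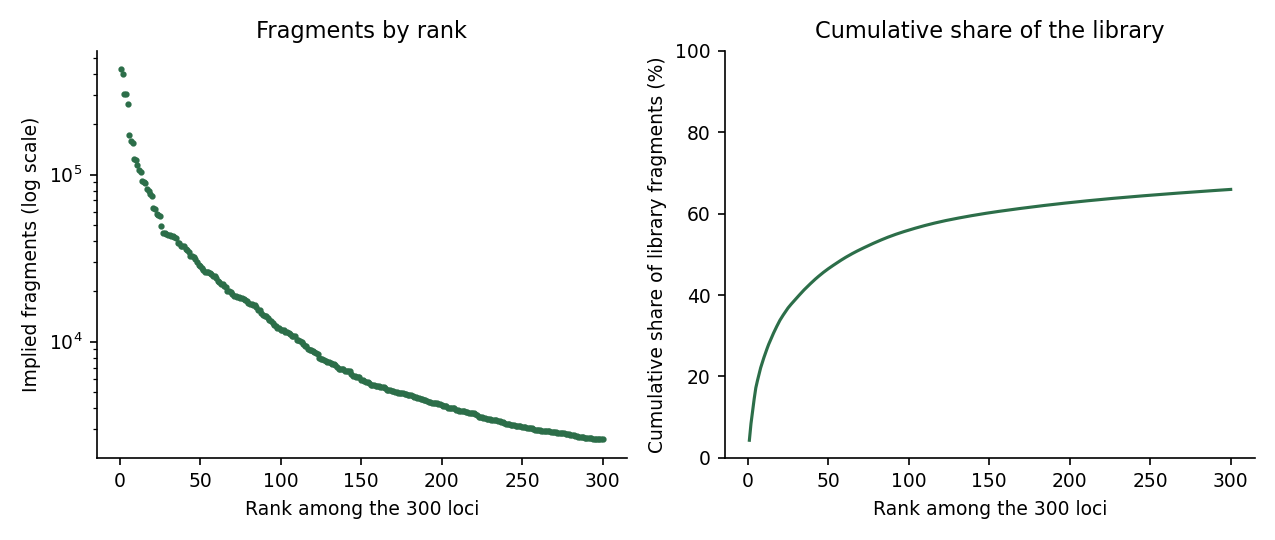
Implied fragments of each of the 300 loci by rank (left, log scale) and their cumulative share of the implied fragments of all listed wheat loci in percent (right); each point is 1 locus of the 1 library. The curve passes 33.8% at rank 20 and 55.9% at rank 100 and ends at 65.9%.

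The first 2 loci differed in how many fragments stood behind 1 FPKM, 79.9 and 34.6. The first, TuG1812G0700005785.01 at Tu7:700664736-700668258, spanned 3523 bases and had 5329 FPKM (limits 5313 to 5346) and 426036 fragments. The second, TuG1812G0200002505.01 at Tu2:261004851-261009560, spanned 4710 bases and had 11589 FPKM (limits 11552 to 11625) and 401028 fragments, 4.07% of the library. Thus the first locus had more fragments at a lower level per length. No other of the 300 loci had FPKM limits that overlapped those of the first.

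The loci at ranks 3, 4 and 5 lay on Tu5 and were of nearly the same span. Tu5:347398644-347399864 (1221 bases) had 16880 FPKM and 303301 fragments, Tu5:347701038-347702249 (1212 bases) had 17006 FPKM and 300941 fragments, and Tu5:500862601-500863824 (1224 bases) had 12652 FPKM and 263446 fragments. They held 3.07, 3.05 and 2.67% of the library. The 2 neighbours were the highest of the 300 loci by FPKM, and their order was the opposite on the other scale: the locus with the higher FPKM had fewer fragments. Rounding in the file alone could shift their fragment numbers by up to 991 and 973.

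Ranks 6 to 10 each held 1.24 to 1.74% of the library. Tu2:192040591-192041987 had 6820 FPKM and 172111 fragments, Tu2:547072642-547074665 had 4398 FPKM and 158864 fragments, and Tu7:422088066-422089167 had 7645 FPKM and 154268 fragments. Tu5:612600296-612602679 had 3434 FPKM and 123952 fragments, and Tu2:300265466-300266957 had 8466 FPKM and 122039 fragments. The order of these loci by FPKM therefore differed from their order by fragments.

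Ranks 11 to 15 fell from 114496 to 89810 fragments. Tu2:250742303-250743549 had 6676 FPKM, Tu5:524265231-524266455 had 4608 FPKM, Tu4:195325061-195327842 had 4386 FPKM and Tu2:328601486-328603117 had 4426 FPKM. Rank 14 was of another kind: Tu4:415973132-415985360 spanned 12229 bases and reached 90860 fragments with 309 FPKM. Of the first 15 loci, 6 lay on Tu2, 5 on Tu5, 2 on Tu4 and 2 on Tu7. A span of 1000 to 1500 bases was found at 8 of these 15 loci and at 66 of all 300.

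Most neighbours in the order of levels could not be told apart, and those that could were more frequent near its top. Sorted by fragments, the counting intervals (2 SDs) of adjacent loci overlapped at 2 of the first 19 pairs and at 259 of all 299. Sorted by FPKM, the deposited limits overlapped at 3 of the first 19 pairs and at 249 of 299. Most single ranks in the list are therefore not fixed by these counts.

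The lower edge of the list was not sharp. The last 3 loci inside were Tu2:723117301-723118648, Tu6:154374971-154376292 and Tu4:20331355-20334076, with 2617, 2613 and 2607 fragments and 107, 205 and 119 FPKM. The first 3 outside were Tu7:436869965-436873634, Tu7:617349211-617355763 and Tu7:633567490-633570889, with 2599, 2593 and 2576 fragments and 82.3, 58.2 and 33.5 FPKM. The counting intervals of 27 ranked loci held the number at the edge, and 16 of them were inside and 11 outside. Of the annotated loci above 0, 50 were not ranked, 25 by their status and 25 by their span.

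By FPKM the 300 loci ranged from 21.4 to 17006, 794-fold, with a median of 205 (95% rank interval over loci 172 to 236) and quartiles of 120 and 636. The remaining loci had a median of 2.75 FPKM. An FPKM of 1000 or more was found at 64 of the 300 loci, which had a median span of 1300 bases. The 60 loci under 100 FPKM had a median span of 4886.5 bases, and the 176 between had one of 2579.5 bases. The cut on fragments lets a locus of low FPKM in only if its transcript is long, so these spans are partly set by the choice.

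A list of the 300 highest loci by FPKM would share 227 loci with this one. The 73 loci of the list by fragments that fell outside it had a median span of 4582 bases and a median of 76.5 FPKM, against a median span of 1889 bases for the 227 shared loci. The 73 loci that replaced them had a median span of 1685 bases, a median of 1606 fragments and up to 13384 FPKM. Across the 300 loci, which share 1 library, Spearman's rho was 0.79 between FPKM and fragments. It was −0.53 between span and FPKM and −0.16 between span and fragments. The cut on fragments sets these values in part, so they do not describe how level and span go together at other loci.

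**Figure D2:**
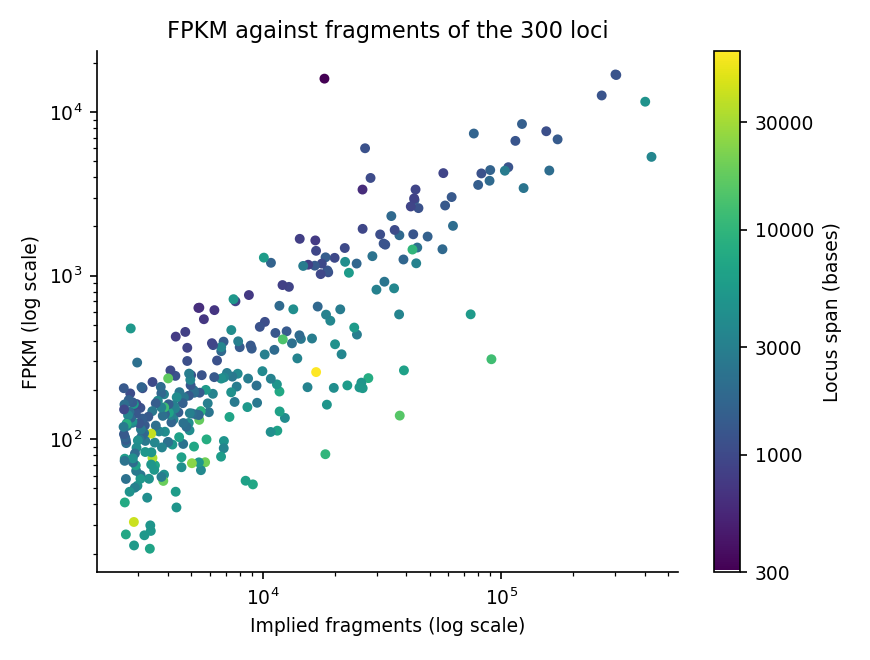
FPKM of the 300 loci against their implied fragments, both on log scales, with each point 1 locus and its colour the locus span in bases. Shorter loci tend to lie higher at a given number of fragments, with exceptions; the dark point near the top left is the 308-base locus with 16034 FPKM and 18125 fragments.

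The shortest locus had a high level on few fragments. Tu4:570189014-570189321, 308 bases long, had 16034 FPKM (limits 15796 to 16273), rank 3 by FPKM within the list, but 18125 fragments, which put it at rank 77. It had 1.13 fragments per FPKM, the lowest ratio of the 300 loci, whose median was 27.8. FPKM divides by an effective length that becomes small at loci near the fragment length, so a level at such a locus is not comparable with the others. The next 4 shortest were Tu3:135581034-135581632 (599 bases, 3363 FPKM), Tu3:739210387-739211012 (626 bases, 636 FPKM), Tu3:131015480-131016107 (628 bases, 638 FPKM) and Tu6:51612098-51612793 (696 bases, 616 FPKM), with 7.78 to 10.2 fragments per FPKM. The 10 loci of the list with the highest FPKM were the 308-base locus, 8 of the first 15 by fragments, and Tu2:156702157-156703844 with 7402 FPKM at rank 19 by fragments.

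The 300 loci spanned fewer bases than the remaining loci. Their median span was 2484.5 bases (95% rank interval over loci 2124 to 2845, quartiles 1361 and 4318), against 3741.5 bases (3681 to 3793, quartiles 2249.5 and 5701) for the 14710 remaining loci. A span under 2000 bases was found at 124 of the 300 loci (41.3%) and at 21.5% of the remaining loci. Under 1000 bases the shares were closer, at 26 loci (8.67%) and 6.55%. The remaining loci with at least 100 fragments, 5753 in all, had a median span of 4115 bases, and the gap to the list was wider with them. At a given level per length, implied fragments rise with transcript length.

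Within the list, span was lowest at the top. The median was 1839 bases at ranks 1 to 75, 2718 at ranks 76 to 150, 2874 at ranks 151 to 225 and 2628 at ranks 226 to 300. Beyond the list it went on rising, from 3166 bases at ranks 301 to 600 to 4218 at ranks 2701 to 3000. The rank intervals of the first and second set of 300, 2124 to 2845 and 2817 to 3436 bases, met at their ends.

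Locus span is not transcript length, since it counts introns. The number of fragments per FPKM is proportional to the effective transcript length, and it was 27.8 at the 300 loci (median, rank interval 25.7 to 30.5) against 27.4 (27.01 to 27.81) at the remaining loci. The medians of this measure thus lay close together where those of the span did not. Divided by the span in kb, it was 13.8 (12.6 to 14.7) against 8.13 (8.01 to 8.26). Its highest value at loci of at least 5000 bases and 1000 fragments, 179 loci, was 24.1, and a value near that ceiling means that nearly the whole span was counted as transcript. The measure shares the fragments with the rule, so it is given as a description.

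Values of 16 or more per kb were found at 105 of the 300 loci (35.0%) and at 16.1% of the remaining loci, and values of 20 or more at 33 (11%) and 4.96%. Values under 5 were found at 27 loci (9%) and at 28.4%. Most of the span is then not in the effective length, which at short loci need not mean introns: the 308-base locus had 3.67. The median fell from 13.8 in the first 300 to 11.1 at ranks 301 to 600 and 7.75 at ranks 2701 to 3000. Among the loci of the list, 96 (32.0%) were models that Cufflinks had assembled around an annotated gene, against 40.7% of the remaining loci. These 96 had a median span of 3584 bases and 9.27 fragments per FPKM per kb, and the other 204 had 1955.5 bases and 15.4, so the kind of model moves with both measures. Its part in them was not tested.

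**Figure D3:**
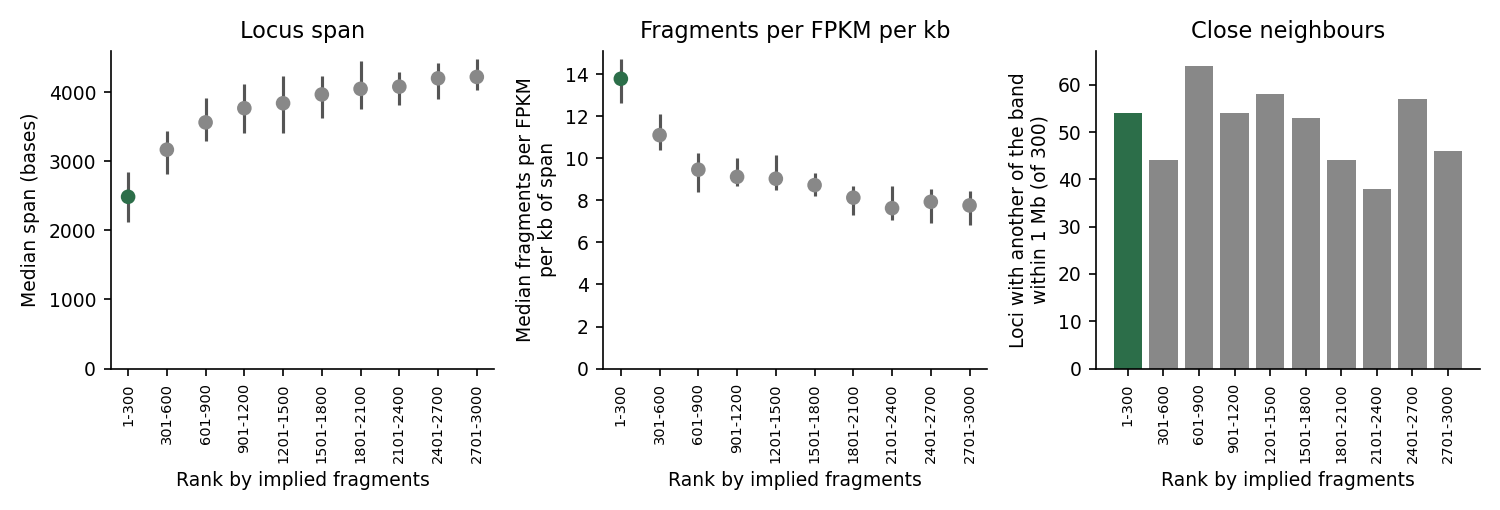
Annotated loci in sets of 300 by rank in implied fragments, the 300 described loci in green and the next 9 sets in grey: median locus span in bases (left) and median fragments per FPKM per kb of span (middle), with 95% rank intervals over loci as bars, and the number of loci with another of the same set within 1 Mb (right). Span rises from 2484.5 to 4218 bases, the ratio falls from 13.8 to 7.75, and the 54 loci with close neighbours lie within the 38 to 64 of the grey sets.

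Long loci of the list were mostly of low ratio. Of the 13 loci of 10000 bases or more, 11 had under 5 fragments per FPKM per kb and 1 had 20 or more. The longest, Tu7:36520784-36583215, spanned 62432 bases and had 258 FPKM and 1.04 fragments per FPKM per kb. It was an assembled model that carried 2 gene identifiers, the only 1 of the 300 loci with several. It was followed by Tu2:711691920-711732481 (40562 bases, 31.2 FPKM), Tu6:366246917-366286440 (39524 bases, 108 FPKM), Tu5:433867084-433898797 (31714 bases, 76.9 FPKM) and Tu5:185063228-185087617 (24390 bases, 71.4 FPKM). The other 2 were the rank 14 locus on Tu4, at 24.1 per kb over 12229 bases, the highest ratio of the 300 loci, and Tu6:265487782-265503186, named after its value was seen, at 17.4 over 15405 bases. The first locus, on Tu7, was also high at 22.7, and the second, on Tu2, was low at 7.35. The locus with the lowest FPKM, Tu2:66927405-66934054, chosen for mention after its value was seen, reached the list with 21.4 FPKM through 6650 bases at 23.6 per kb.

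The 300 loci lay on all 7 chromosomes, with most on Tu2. Tu2 held 67 of them (22.3%), Tu5 held 52 (17.3%), Tu4 held 44 (14.7%), Tu6 held 37 (12.3%), Tu3 and Tu7 held 35 each (11.7%) and Tu1 held 30 (10.0%). Of all annotated loci above 0, Tu2 had 16.9%, Tu5 15.3%, Tu4 12.1%, Tu6 11.6%, Tu3 15.7%, Tu7 15.2% and Tu1 13.2%. Per 100 annotated loci above 0, that is 2.65 loci of the list on Tu2, 2.43 on Tu4, 2.26 on Tu5 and 2.12 on Tu6, and 1.48 to 1.54 on Tu1, Tu3 and Tu7.

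The next sets of 300 by rank give a scale for these counts. Over ranks 301 to 3000, Tu2 held 43 to 54 loci of each set, Tu4 held 32 to 40 and Tu5 held 36 to 50, so the 67, 44 and 52 of the first set were above all 9 of them. The 35 on Tu3 and the 35 on Tu7 were below their ranges of 39 to 62 and 39 to 54. The 30 on Tu1 and the 37 on Tu6 were within 30 to 51 and 28 to 51.

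By fragments the chromosomes differed more. Tu2 held 29.9% and Tu5 25.7% of the fragments of the 300 loci, Tu7 held 16.2%, Tu4 10.6%, Tu6 7.30%, Tu3 5.45% and Tu1 4.83%. The remaining loci were spread more evenly, from 11.9% on Tu4 to 16.2% on Tu2. A few loci carried much of this. The first locus alone held 40.4% of the fragments on Tu7 from the list, and 9.67% of all fragments of the 300 lay on Tu7 outside it. Over the 290 loci below rank 10, Tu2 held 26.7%, Tu4 16.9%, Tu5 16.7%, Tu7 11.6%, Tu6 11.6%, Tu3 8.70% and Tu1 7.71%, so Tu2 stayed first and Tu5 came after Tu4.

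**Figure D4:**
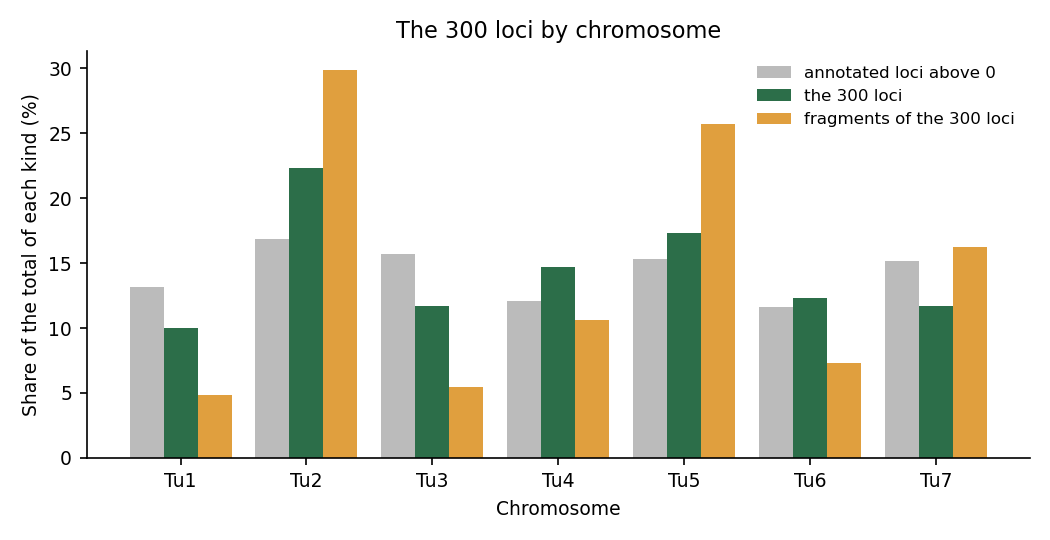
Share of each chromosome, in percent, of the 15010 annotated loci above 0 (grey), of the 300 loci (green) and of the implied fragments of the 300 loci (orange); each colour sums to 100 over the 7 chromosomes. Tu2 has 16.9, 22.3 and 29.9%, and Tu1 has 13.2, 10.0 and 4.83%.

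On Tu1, Tu3 and Tu6 the leading loci were smaller. They were Tu1:53941500-53946978 with 581 FPKM and 74357 fragments (rank 20), Tu3:23239328-23240502 with 4221 FPKM and 82462 fragments (rank 17), and Tu6:179389929-179391253 with 3026 FPKM and 61886 fragments (rank 22). They held 23.7, 23.3 and 13.0% of the fragments of the list on their chromosomes. The median locus differed less than the totals, from 4713 fragments on Tu4 to 8741.5 on Tu2.

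Along the chromosomes the loci of the list lay towards the ends, as the remaining loci did. With each chromosome cut into 10 equal bins up to its last listed locus, bins 1 and 10 held 107 of the 300 loci (35.7%) and 29.8% of the remaining loci. Bins 4 to 7 held 77 (25.7%) and 27.5%. The fragments were placed otherwise: bins 4 to 7 held 37.6% of the fragments of the 300 loci and 27.5% of those of the remaining loci. Of the 10 loci with the most fragments, 5 lay in bins 4 to 7, and over the loci below rank 10 the share there was 28.5%. The centromere positions were not in the file.

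The number of close neighbours within the list lay in the range of the next sets by rank. Of the 300 loci, 54 (18.0%) had another of the 300 within 1 Mb, and the 9 next sets of 300 had 38 to 64. Ranked by FPKM, the first 300 had 68 and the 9 next sets, a comparison added after the data were seen, had 32 to 75. Within 200 kb the number was 21, against 4 to 28. The 54 loci formed 23 groups, 18 of 2 loci, 4 of 3 and 1 of 6, and held 22.9% of the fragments of the list. Their median was 6186 fragments, against 5840 for the 246 loci that stood alone. Tu2 and Tu5 had 16 of the 54 loci each, Tu4 had 7, Tu3 had 5, Tu1 had 4, and Tu6 and Tu7 had 3 each.

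Neighbours were alike in span in a larger share of pairs than loci farther apart, in part through 1 group and with intervals that overlapped. Of the 31 pairs of loci that followed each other within 1 Mb, 14 had spans within 1.5-fold (45.2%, exact 95% binomial interval 27.3 to 64.0%). Of the 262 pairs farther apart, 68 did (26.0%, 20.8 to 31.7%). Pairs in a row share loci and are not independent, which these intervals do not allow for. The median span ratio was 1.62 (quartiles 1.12 and 3.63) against 2.28 (1.44 and 3.67), and 1.25 at the 13 pairs within 200 kb. All adjacent pairs of the group of 6 on Tu2 were among the 14 and among these 13, with span ratios of 1.07 to 1.47. The FPKM was within 2-fold at 12 pairs (38.7%) against 34.0%, with a median ratio of 2.84 (quartiles 1.34 and 5.04) against 3.0 (1.58 and 8.38). The FPKM limits overlapped at 1 of the 31 pairs. The gene numbers in the identifiers differed by 1 at 6 of the 31 pairs and by 5 or less at 19. Where neighbours are near-identical copies, fragments that match both are divided between them by the software, and their single values are then uncertain. Likeness in sequence was not examined.

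The group of 6 lay on Tu2 from 28291062 to 28516229, over 225.2 kb, and held 158449 fragments, 1.61% of the library. In order along the chromosome, its loci had 3366, 240, 3961, 1077, 1295 and 2905 FPKM. The spans were 916 to 1478 bases, all under the median of the list. Inside the group 18 annotated loci were listed, and 9 were above 0. A locus between them, Tu2:28347768-28349284 with 161 FPKM and 2461 fragments, ended just under the edge of the list, and the other 2 above 0 had 5.53 and 2.41 FPKM. The loci at Tu2:28319176-28320517 and Tu2:28319498-28320531 overlapped each other and had 240 and 3961 FPKM. Without strand and exons their reads cannot be told apart here, and both values are uncertain.

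The pair at ranks 3 and 4 on Tu5 was the group with the most fragments, 604242, or 6.13% of the library and 9.29% of the fragments of the list. Its loci lay 301 kb apart, their gene numbers differed by 3, and both levels and spans differed 1.01-fold. The limits were 16818 to 16941 and 16944 to 17068 FPKM, so they were just apart. Another pair on Tu5 was the opposite: Tu5:612600296-612602679 with 3434 FPKM and Tu5:612616853-612619028 with 57.2 FPKM had consecutive gene numbers, a gap of 14.2 kb and spans within 1.10-fold, and their levels differed 60.1-fold. On Tu2, the loci Tu2:180714300-180715549 and Tu2:181641990-181644018 had 1792 and 2018 FPKM.

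The 4 groups of 3 had 1644 FPKM at most. On Tu4, the rank 14 locus had 2 neighbours, Tu4:416007892-416011386 with 331 FPKM and Tu4:416841663-416845057 with 89.1 FPKM, and 116024 fragments with them. On Tu3, 3 short loci of 626 to 1022 bases, Tu3:739065672-739066453, Tu3:739210387-739211012 and Tu3:739343011-739344032, had 1644, 636 and 224 FPKM. On Tu7, Tu7:552856199-552859105, Tu7:553583165-553586159 and Tu7:554553096-554554825 had 126, 397 and 1257 FPKM over 1699 kb. On Tu6, Tu6:557345811-557347922, Tu6:557712431-557714443 and Tu6:558374137-558375249 had 121, 192 and 205 FPKM, and the last 2 were the pair with overlapping limits.

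**Figure D5:**
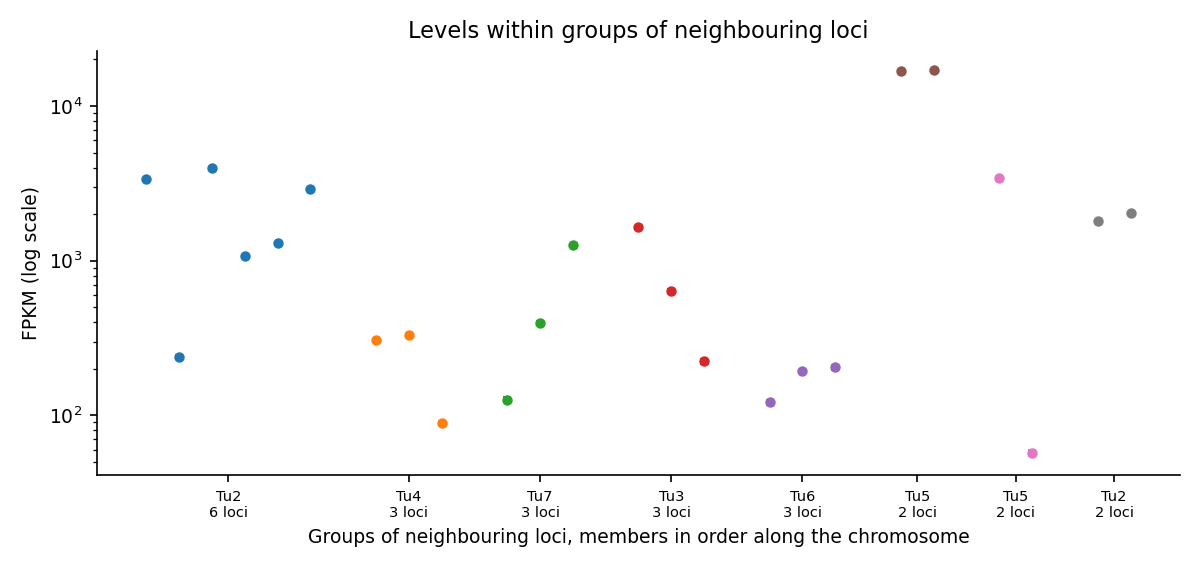
FPKM on a log scale of the loci in the 5 groups of neighbours with the most loci and the 5 with the most fragments, 8 groups in all, with each colour 1 group and its loci in order along the chromosome; bars are the deposited limits and are smaller than most points. The pair at 16880 and 17006 FPKM is level, and the other pair on Tu5 falls from 3434 to 57.2 FPKM.

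The density of annotated loci around the list was close to that around the remaining loci, and loci without an identifier overlapped a smaller share of the list. A median of 21 annotated loci (quartiles 12 and 31) lay within 1 Mb, against 19 (11 and 30). The nearest annotated locus was above 0 at 160 of the 300 loci (53.3%) and at 50.3% of the remaining loci, and had 10 FPKM or more at 43 (14.3%) and 10.8%. The median gap to it was 7.42 kb against 4.79 kb. Loci without an identifier lay within 5 kb of 48 of the 300 (16%) and of 20.9%, and overlapped 5 of them (1.67%) against 13.1%. Besides the overlapping pair on Tu2, 1 locus of the list, Tu7:708606201-708607830 with 1200 FPKM, overlapped another annotated locus above 0, and its value is uncertain in the same way.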

How the data were processed

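The labels put 1 wheat library in the series, and its deposited table was the only one used; both maize tables were left out. The authors deposited FPKM per locus with lower and upper limits, also FPKM, and a status. The submitters' processing notes name CASAVA, TopHat2 2.0.12 and Cufflinks, and a maize build for all samples; the wheat build and the Cufflinks version were not given in the sources used here. Loci were annotated or assembled from the reads.

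Implied fragments were computed as the square of 2 times the FPKM over the upper limit minus the FPKM, on the reading that limits lie 2 SDs of a Poisson count away. FPKM was written to 6 significant digits, which shifts this number by 0.0380% at the median of the 300 loci and by at most 0.547%. At 61.1% of the 12454 remaining loci where rounding allowed the check, it was whole within 0.02. It was not whole at the rest, and why was not tested. Starts counted from 0 in the file: end minus start was a multiple of 3 at 43.3% of 12870 annotated loci under 1500 bases, against 28.7% after adding 1. The calculation was run on simulated data whose limits were made by the same formula, which checks the arithmetic and rounding only. It cannot show whether the deposited limits were made in that way.

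Python 3.11.15, pandas 2.3.3, numpy 2.4.6, scipy 1.17.1 and matplotlib 3.10.9 were used. No p-value was computed. Shares of fragments have exact binomial intervals (Clopper-Pearson, 95%) and medians have rank intervals over loci, and both describe this library only. PCR reads without molecular identifiers are not independent molecules. Groups joined loci of the list with gaps of at most 1 Mb.

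Named loci were the 15 with the most fragments, 3 on each side of the edge, the 10 highest by FPKM, the 5 longest and 5 shortest, the first on each chromosome, and the loci of the 5 groups with the most loci and the 5 with the most fragments. The list and these rules were chosen with earlier results of these data known. A maize reference table matched 0 of the identifiers, so at most 2 are printed. Alternatives were other list sizes, ranking by FPKM, other spans, distances and denominators, whole numbers only, and leaving out the first locus.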

Additional observations from a re-analysis of the deposited data

Results flagged for a closer look

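Outside the list, 27 loci without a gene identifier had at least as many fragments as its last locus, and together held 4.33% of the library. They are in the library total but are no locus of the list or of the remaining loci. Those with the most fragments were Tu1:554480071-554481248, with 4965 FPKM and 109489 fragments, and Tu2:559010927-559012361, with 1879 FPKM and 53354 fragments. Others had fewer fragments and more FPKM, such as Tu7:253623369-253624345 with 162162, above the 17006 of the highest locus of the list.

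Loci that the software did not mark OK were also left out. The highest annotated one marked LOWDATA, Tu7:532366051-532371919, had 3032 FPKM and 2454 implied fragments, and the highest marked FAIL, Tu3:398121105-398134186, had 1372 FPKM and 1068 implied fragments. Both had a lower limit of 0, so their limits were not symmetric and these numbers are not comparable with those of the list. Of all listed loci, 47 were marked LOWDATA and 3 FAIL.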

How the results depend on the processing

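Tu2 held the most loci under all 7 alternatives, with 18.8 to 24.7% of them, and the ratio of median spans to the remaining loci, 0.664, was 0.646 and 0.663 with other sets of remaining loci. No minimum span gave the same 300 loci. The share of the library, 65.9%, was 60.2% with 150 loci, 71.5% with 600, 63.9% with the 300 highest by FPKM, 62.1% with spans of at least 1000 bases, 64.4% without the first locus, 71.7% of annotated fragments, and 0.00619% of the sum of FPKM. Loci with a neighbour within 1 Mb, 54, were 18 with 150 loci, 193 with 600 and 68 with the highest by FPKM, and 21 within 200 kb and 158 within 5 Mb. The median span, 2484.5 bases, was 1873 by FPKM and 2849.5 with spans of at least 1000. The 10 first loci held 37.3% of the fragments of the list, and 40.9% with 150 loci, 34.4% with 600, 38.5% by FPKM, 39.6% with spans of at least 1000 and 34.8% without the first locus. Keeping only whole implied fragments left 7 of the 300 loci, by construction, since rounding in the file hides whole numbers at this size; it gave 4.08%, 2974 bases and 37.9%. No paired analysis was possible because there was 1 wheat library, and no replicate could be left out. The limits of the values were read as counting error, and differences between plants and libraries were not measured.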
